A study of Mus musculus with 8 samples.

Results

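Libraries of macrophages sorted from the mouse heart held a small amount of RNA from genes of the heart muscle cell, and 32 such genes are described here. They were chosen by name, as genes that make up the contractile apparatus, the calcium store, the energy supply and the hormones of cardiomyocytes, and all 32 were found among the 24516 genes of the count table. The table holds 8 libraries of total RNA, 4 from macrophages of endocardial descent (EcTM, named E591, E592, E604 and E606) and 4 from cardiac macrophages without that descent (non-EcTM, named N591, N592, N604 and N606). Both groups were sorted from C57BL/6 hearts of postnatal day 28 with the genotype Nfatc1Cre/+; Rosa26Tomato reporter/+, so the controls carry the Cre and reporter alleles too. Nfatc1 is a transcription factor gene of the endocardium, so its Cre marks cells of endocardial origin. Its own transcript was listed at 0 in all 8 libraries, and no upper limit on its RNA is drawn from this. The labels give no separate animals for the libraries, so p-values measure the spread between these libraries.

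Cardiomyocytes shorten when myosin in thick filaments pulls on actin in thin filaments, and troponin on the thin filament makes this depend on calcium. Calcium is released from the sarcoplasmic reticulum by a ryanodine receptor and is pumped back by a calcium ATPase. Macrophages do not build sarcomeres. They lie between cardiomyocytes in the living heart and are known to take up material that these cells shed.

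The libraries had 2152425 to 2937464 counts. Among the lists of cell type markers, the macrophage list had the highest sum in every library. A list of 40 macrophage genes took 5.23% to 5.56% of all counts, with Lyz2 (lysozyme), Csf1r (the receptor for the macrophage growth factor CSF1) and Mrc1 (the mannose receptor) at means of 5791, 5733 and 5301 CPM over the 8 libraries. CPM, the usual count scale relative to library size, was computed here with the TMM factors of edgeR. Of the macrophage list, Folr2 and Itgam were listed at 0. In families of housekeeping genes (ribosomal, proteasome and respiratory chain proteins among them) 190 genes with 1 curated RefSeq transcript had a median total of 614.5 counts, 48 genes with 2 had 48.5 and 33 genes with more had 14. Other genes with several transcripts had high counts, such as Adgre1 (the F4/80 antigen) with 3 curated transcripts and 16683 counts. No upper limit on RNA is drawn here from a count of 0 in a gene with several transcripts; 3 counts correspond to 1.02 to 1.39 CPM.

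The cardiomyocyte genes together had 382 to 906 counts per library. In EcTM they took 0.0236%, 0.0202%, 0.0168% and 0.0229% of all counts in E591, E592, E604 and E606. The shares were 0.0357%, 0.0213%, 0.0193% and 0.0266% in the non-EcTM libraries N591, N592, N604 and N606. The 95% Wilson interval was 0.0335% to 0.0381% in N591, the highest library, and 0.0152% to 0.0186% in E604, the lowest. These intervals treat each count as an independent molecule and leave out other spread between libraries. PCR copies are not independent molecules, so the intervals can be too narrow even for counting error. N591 stood above every other library, and the other 7 spanned a 1.58-fold range with the groups overlapping. Per 1000 counts of the macrophage list, the cardiomyocyte genes had 4.27, 3.63, 3.07 and 4.24 counts in the EcTM libraries and 6.64, 3.83, 3.68 and 5.08 in the non-EcTM libraries, in the same order of numbers.

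Of the 32 genes, 26 had at least 1 count and 19 had a count in all 8 libraries. The 6 genes at 0 throughout were Myh6 (the main myosin heavy chain of the adult mouse heart), Tnnt2 (cardiac troponin T), Pln (phospholamban, which restrains the calcium pump), Nppb (B-type natriuretic peptide), Csrp3 (a Z-disc protein) and Ldb3 (another Z-disc protein). All 6 have at least 2 curated transcripts. The 15 members with 1 curated transcript all had counts, with totals of at least 39 over 8 libraries and a median of 128. The 17 members with at least 2 had totals of 0 to 636 and a median of 25. Over all protein-coding genes the shares at 0 were nearly equal, 36.6% with 1 curated transcript and 38.7% with more, and 41.6% of all genes in the table were at 0. Among the housekeeping genes above the shares differed, with 5.26% at 0 for 1 curated transcript, 10.4% for 2 and 33.3% for 3 or more. The part of transcript number in the 6 zeros was not tested. The RefSeq transcript numbers may differ from those in the annotation used for counting, and Myl2 had 439 counts with 7 curated transcripts.

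**Figure D1:**
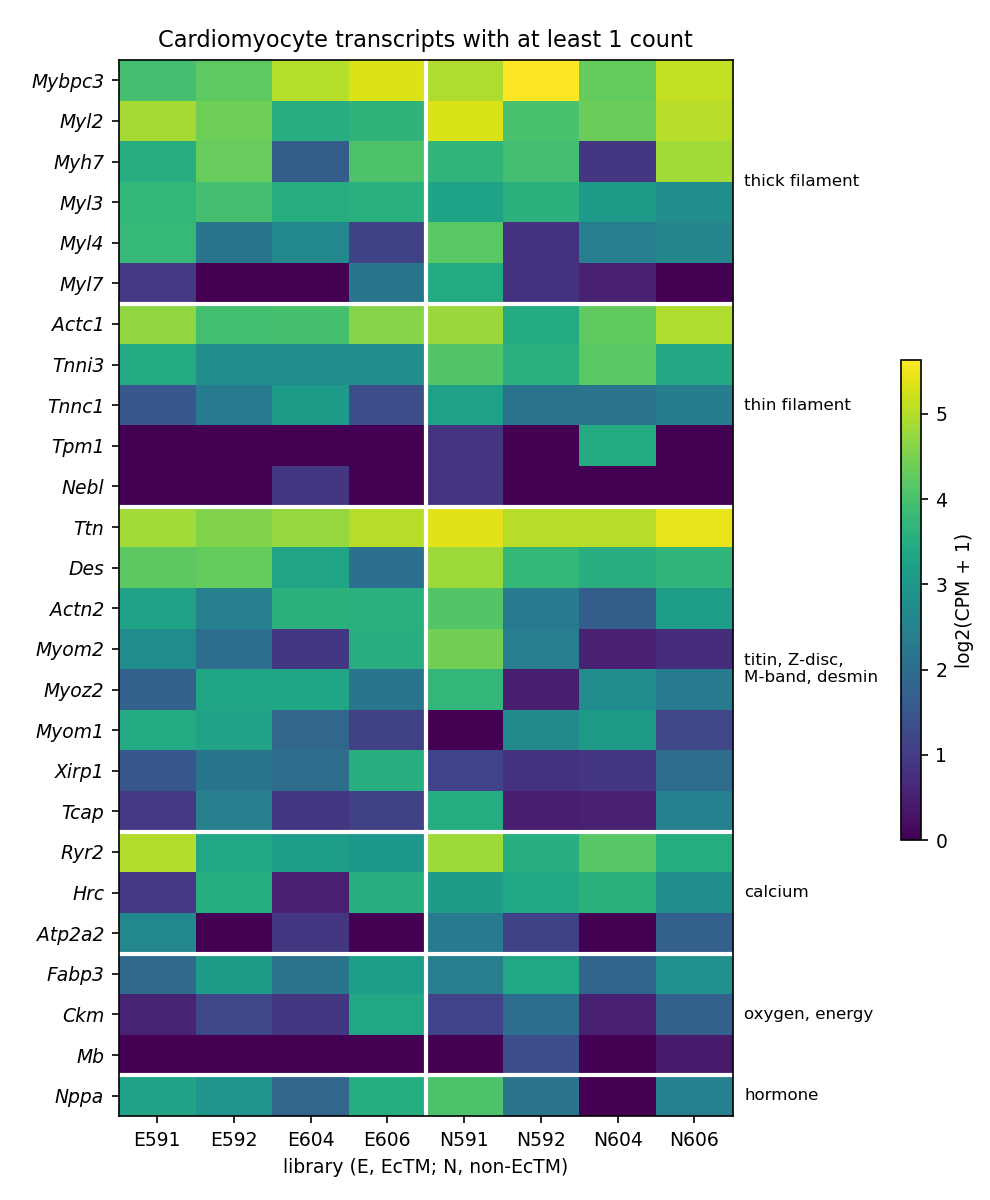
Level of the 26 cardiomyocyte genes with a count, as log2(CPM + 1), in each EcTM (E) and non-EcTM (N) library, with genes grouped by role. Ttn, Mybpc3, Myl2 and Actc1 are bright in most of the 8 libraries, while Tpm1, Nebl and Mb have counts in only 2 libraries each.

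Levels of different genes were compared per transcript length, and only among genes with 1 curated transcript. Of the 15 cardiomyocyte genes compared, the highest was Actc1 (cardiac alpha-actin), with a mean of 13.8 CPM per kilobase. Its range was 6.86 to 20.5 over the 8 libraries. Tnni3 (cardiac troponin I) followed with 11.1, and its range of 6.21 to 18.99 overlapped that of Actc1. Nppa (atrial natriuretic peptide) had 7.49, Mybpc3 (myosin-binding protein C) 7.03, Fabp3 (the fatty acid-binding protein of heart) 6.71 and Tnnc1 (troponin C) 5.96 CPM per kilobase. The ranges of these 4 over the libraries overlapped. Lower on the scale were Ryr2 (the ryanodine receptor) at 0.887, Ckm (muscle creatine kinase) at 0.871 and Xirp1 (a protein of cell junctions in heart muscle) at 0.532. Ckm had 1 to 24 counts per library and is among the abundant transcripts of intact heart muscle. The median of the 15 genes was 3.29 CPM per kilobase, against 752 for 26 macrophage genes measured the same way, a ratio of 228. The lowest of the 26, Timd4 (a receptor for dying cells on resident macrophages), had 73.5 CPM per kilobase, above each of the 15 cardiomyocyte genes. Myl2, left out here for its 7 curated transcripts, had a mean of 33.2 CPM per kilobase by its longest one, above Actc1. Its range was 15.8 to 59.0.

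**Figure D2:**
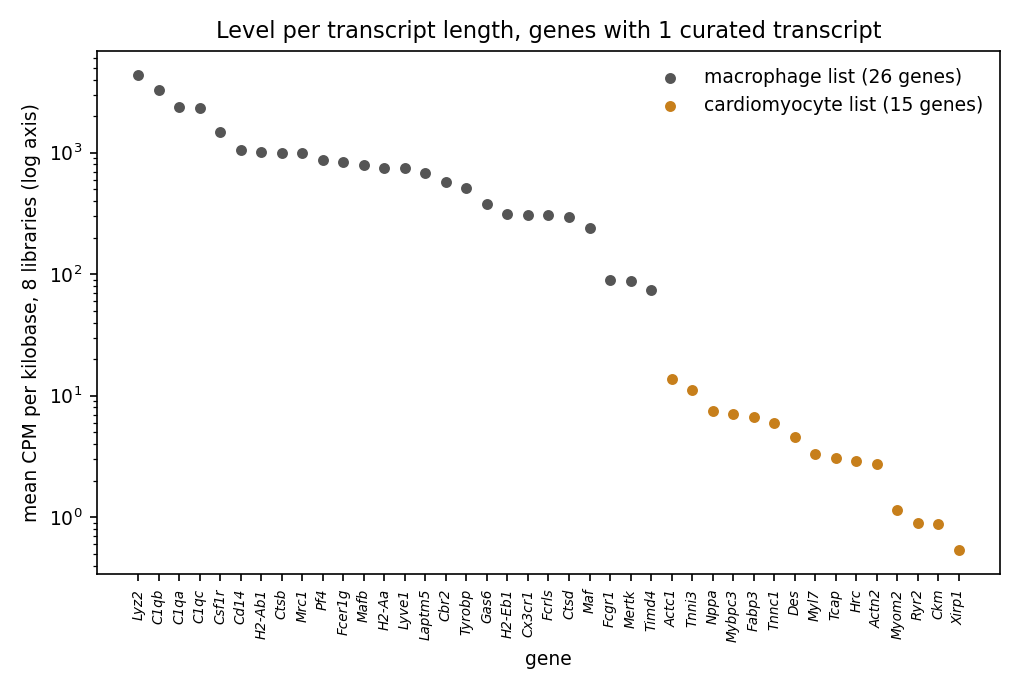
Mean level over 8 libraries in CPM per kilobase of transcript (log axis) for the 26 macrophage and 15 cardiomyocyte genes with 1 curated transcript. The macrophage genes run from 4400 to 73.5 and the cardiomyocyte genes from 13.8 to 0.532, with no overlap.

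The comparison between groups asked whether these transcripts differ between EcTM and non-EcTM. No cardiomyocyte gene passed the test. Genes with low counts were left out by edgeR's default filter, which kept 17 of the 32 genes. In edgeR's quasi-likelihood test 0 of these 17 had a p under 0.05 after Benjamini-Hochberg adjustment over all tested genes and 0 had an unadjusted p under 0.05, where 3.35% of all 7667 tested genes had the latter and 0.0% the former. DESeq2 called 0 of the 26 members with a count, with 1 at an unadjusted p under 0.05, where 0.0% and 3.2% of 14295 genes were past the respective threshold. Of the 17 genes 12 had a log2 fold change below 0 and 5 above, beside 48.7% of all tested genes below 0. Their median was -0.23, beside 0.01 over all tested genes. Endothelial and mural markers lay lower in EcTM too, 8 of 8 tested endothelial genes with a median of -1.07 and 6 of 6 tested mural genes with a median of -0.89. Of these 1 and 2 had an unadjusted p under 0.05 and 0 passed after adjustment, and their part in the cardiomyocyte values was not tested. Fibroblast markers did not share this direction, with 2 of 3 tested genes above 0, 1 below and a median of 0.05. N591 had the highest endothelial and mural sums. In the EcTM libraries E591, E592, E604 and E606 the endothelial sums were 539, 119, 87.5 and 320 CPM. In N591, N592, N604 and N606 they were 1432, 160, 215 and 202.5 CPM. The mural sums were 118, 97.6, 102 and 85.1 CPM in EcTM, with 333, 90.2, 226 and 117 CPM in non-EcTM. Without N591, 16 of the cardiomyocyte genes were tested, 8 lay below 0 and 8 above, and the median was 0.00299 beside 0.0127 over all tested genes. With E591 and N591 both left out, the median was -0.20. Without N592, N604 or N606 it was -0.38, -0.44 or -0.34, and without 1 EcTM library it was -0.25 to -0.10. Fewer cells of a type and less RNA per cell cannot be told apart in such bulk samples.

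With the title number as a replicate block, which pairs E591 with N591 and so on, edgeR called 1 of 7667 genes (0.013%) and DESeq2 called 26 of 2660 (0.977%). The paired edgeR fit tested 17 of the 32 cardiomyocyte genes, and 0 had an adjusted or an unadjusted p under 0.05, where 5.41% of all tested genes had the latter. In the paired DESeq2 fit no cardiomyocyte gene was among the 2660 given an adjusted p, so none could be called, and 0 of 26 had an unadjusted p under 0.05. The paired edgeR fit gave the 17 genes a median log2 fold change of -0.07, with 11 below 0 and 6 above.

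The members summed to 211 ± 32.9 CPM (SD, n = 4) in EcTM, against 254 ± 73.9 CPM for the 4 non-EcTM libraries. Without N591 the non-EcTM mean was 220 ± 33.2 CPM (n = 3). The EcTM library was the lower one in 4 of 4 pairs of the same number. It was lower in 3 of 4 pairs without Ttn, without Mybpc3 or over the members with 1 curated transcript alone, and in 2 of 4 pairs without the members that overlap another gene. For the sum of all members the log2 ratio was -0.57 for E591 over N591 and -0.03 for E592 over N592. It was -0.20 for E604 over N604 and -0.15 for E606 over N606. These sums were not tested, since the genes were chosen as a set. The difference between the group means was smaller than the SD of the non-EcTM libraries. By role, the thin filament genes summed to 30.1 ± 5.37 CPM in EcTM, with 42.4 ± 12.5 CPM in non-EcTM, and the calcium handling genes to 20.8 ± 11.6 and 26.4 ± 8.90 CPM, both lower in EcTM in 4 of 4 pairs. The thick filament genes summed to 74.1 ± 10.4 and 90.8 ± 28.6 CPM, and EcTM was lower in 3 of 4 pairs. The genes of titin, Z-disc, M-band and intermediate filament summed to 70.9 ± 5.83 and 80.6 ± 32.6 CPM, with EcTM lower in 2 of 4 pairs. Group means were higher in EcTM for the oxygen and energy genes, at 8.45 ± 6.35 against 7.85 ± 4.74 CPM, and for the natriuretic peptide genes, at 6.99 ± 3.26 against 5.96 ± 6.82 CPM, with EcTM higher in 2 and 3 of 4 pairs.

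Among the thick filament genes, Myl2 (the ventricular regulatory light chain of myosin) stood at 28.4, 19.96, 10.4 and 11.8 CPM in E591, E592, E604 and E606 and at 39.0, 15.2, 19.5 and 31.8 CPM in the libraries N591, N592, N604 and N606 of non-EcTM. Groups overlapped, and its log2 fold change was -0.59 ± 0.40 (SE) with an adjusted p of 0.998 in edgeR. Myl3 (the ventricular essential light chain) had 12.3, 14.6, 10.4 and 10.98 CPM in EcTM, with 8.67, 11.3, 7.36 and 5.90 CPM in non-EcTM. It was the tested member that was higher in EcTM in 4 of 4 pairs, at 0.54 ± 0.48 and an adjusted p of 0.998, where 7.25% of all tested genes were higher in every pair. Its groups overlapped through N592, which lay above E604 and E606. Mybpc3 had 14.7, 17.74, 30.9 and 39.6 CPM in EcTM, with 30.4, 48.6, 18.6 and 33.8 CPM in non-EcTM, and N592 was highest. EcTM was above non-EcTM in 2 of 4 pairs, and the fold change was -0.35 ± 0.37.

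Myh7 (the slow myosin heavy chain, which in adult mouse ventricle is a minor form) had 10.4, 19.1, 2.18 and 15.7 CPM in EcTM, with 11.8, 14.4, 0.866 and 27.9 CPM in non-EcTM. E604 and N604 were far below the other 6, and the fold change was -0.22 ± 0.72. Its gene lies next to the near-identical Myh6 on chromosome 14, with a gap of 3756 bases, and how reads shared by the pair were counted is not given, so the split between Myh7 and a Myh6 listed at 0 is uncertain. The light chains of the atrium were uneven. Myl4 (the atrial essential light chain) had 12.8, 3.55, 5.22 and 1.18 CPM in EcTM, with 17.4, 0.777, 4.33 and 4.92 CPM in non-EcTM. Its fold change of -0.28 ± 0.88 was 0.74 without N591. Myl7 (the atrial regulatory light chain) had 25 counts in N591, 9 in E606 and 0 to 2 in the other 6 libraries. Both were highest in N591.

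Among the thin filament genes, Tnni3 had 9.93, 5.77, 5.66 and 5.88 CPM in EcTM, with 16.2, 10.9, 17.3 and 9.50 CPM in non-EcTM. The groups overlapped only because E591 lay above N606. Tnni3 had the largest fold change of the 17, -0.98 ± 0.50, with an unadjusted p of 0.0674 and an adjusted p of 0.998 in edgeR. It was lower in EcTM in 4 of 4 pairs, where 6.89% of all tested genes were, and it lies on chromosome 7 from 4518305 to 4522718 (GRCm38). Without N591 its log2 fold change was -0.88. Another gene, Dnaaf3, overlaps Tnni3 on the same strand and had 123 counts over the 8 libraries where Tnni3 had 200. How reads shared by these genes were counted is not given, and the part of Dnaaf3 in the Tnni3 values was not tested. Actc1 had 25.1, 14.2, 14.8 and 23.5 CPM in EcTM, with 26.4, 10.1, 18.2 and 30.1 CPM in non-EcTM. E591, E606, N591 and N606 were the 4 highest libraries, and the fold change was -0.13 ± 0.39. Actc1 closely resembles the skeletal actin gene Acta1, which was listed at 0, and reads could be shared with other actin genes.

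Tnnc1 had 4 to 21 counts per library and was highest in N591. Tpm1 (alpha-tropomyosin, which many cell types make) had 23 counts in N604, 2 in N591 and 0 elsewhere. It was the gene that DESeq2 gave an unadjusted p of 0.0236, with an adjusted p of 0.994, and it has 10 curated transcripts. Nebl (nebulette, an actin-binding Z-disc protein) had 4 counts in all.

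**Figure D3:**
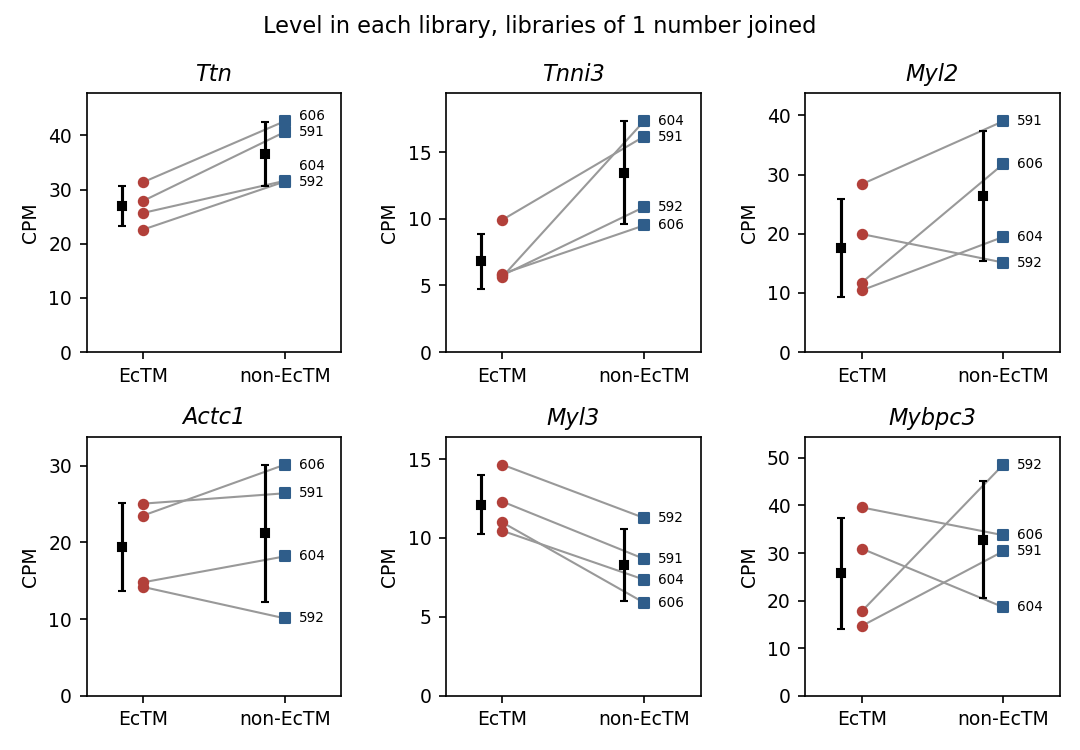
CPM of 6 cardiomyocyte genes in each library, with a line for each pair of equal number and squares in black at each group's mean, with its SD over 4 libraries. Ttn is the gene whose groups do not overlap, Myl3 is higher in EcTM in every pair, and the lines of Mybpc3 cross.

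Ttn encodes titin, the giant protein that links the Z-disc of the sarcomere to its M-band. It had 27.9, 22.6, 25.7 and 31.4 CPM in E591, E592, E604 and E606 and 40.6, 31.5, 31.6 and 42.6 CPM in N591, N592, N604 and N606. Every non-EcTM library was above every EcTM library, although the gap between E606 and N592 was far smaller than the spread within each group. Ttn was the 1 gene of the 17 tested whose groups did not overlap, where 1.41% of all tested genes were lower in EcTM in this way and 1.29% higher. Its mean was 26.9 ± 3.68 CPM in EcTM, against 36.6 ± 5.87 CPM for non-EcTM (SD, n = 4), and its log2 fold change of -0.44 ± 0.26 had an adjusted p of 0.998 in edgeR. The fold change was -0.39 without N591. Ttn had the most counts of the 32 genes, 636, and the smallest SE of the 17. Its gene lies on chromosome 2 from 76703980 to 76982557, and the transcript used for its length has 100404 bases, so that its level per kilobase was 0.316 CPM. It has 2 curated transcripts in the RefSeq table.

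Desmin, the intermediate filament protein that ties Z-discs together, is encoded by Des, which mural cells express too. Des had 17.5, 18.6, 8.71 and 3.14 CPM in EcTM, with 26.8, 12.4, 10.8 and 12.1 CPM in non-EcTM, and its fold change of -0.38 ± 0.54 was 0.0173 without N591. Actn2 (the alpha-actinin of the Z-disc) had 8.51, 4.44, 11.3 and 10.98 CPM in EcTM, with 16.6, 3.89, 2.165 and 7.87 CPM in non-EcTM. EcTM was above non-EcTM in 3 of 4 pairs and lower in E591 than in N591, with a fold change of 0.21 ± 0.67 that was 0.91 without N591.

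Both M-band genes varied widely. Myom2 (M-protein) had 5.68, 3.10, 0.871 and 10.6 CPM in EcTM, with 20.5, 4.27, 0.433 and 0.655 CPM in non-EcTM, and N591 was highest. Myom1 (myomesin) had 9.93, 8.43, 2.61 and 1.18 CPM in EcTM, with 0, 5.44, 7.36 and 1.31 CPM in non-EcTM, and N591 was the library without a count. Their fold changes were -0.34 ± 1.02 and 0.65 ± 0.99, and 0.33 ± 1.11 and 0.72 ± 1.17 with the replicate block. Myoz2 (calsarcin, a binding partner of calcineurin at the Z-disc) had 2.37, 8.87, 9.14 and 3.53 CPM in EcTM, and the non-EcTM libraries had 12.2, 0.389, 5.63 and 3.93 CPM. It had 1 count in N592 and 31 in N591, and its fold change of 0.11 ± 0.84 was 0.84 without N591. Tcap (the titin cap) had 26 counts in N591, 14 in N606, 10 in E592 and 1 to 3 in the other 5 libraries. Xirp1 had 4, 8, 7 and 27 counts in EcTM and 3, 2, 2 and 9 in non-EcTM, too few for the filter. EcTM exceeded non-EcTM in 4 of 4 pairs, and DESeq2 gave it an unadjusted p of 0.0819.

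For calcium handling, Ryr2 had 30.7, 9.31, 7.84 and 7.06 CPM in EcTM, with 26.8, 10.5, 16.9 and 10.2 CPM in non-EcTM. E591 and N591 were the highest of their groups, and the other 3 EcTM libraries lay between 7.06 and 9.31 CPM. Its fold change was -0.23 ± 0.53, and 0.13 without N591. Hrc (a calcium-binding protein of the sarcoplasmic reticulum) had 0.946, 10.2, 0.435 and 10.6 CPM in EcTM, with 7.49, 9.33, 11.3 and 5.90 CPM in non-EcTM. E591 and E604 had 2 and 1 counts, and the other 6 had 18 to 27, and the fold change was -0.60 ± 0.81. Atp2a2 (the calcium pump) had 0 to 11 counts and has 3 curated transcripts.

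Among the genes of oxygen and energy supply, Fabp3 had 2.84, 7.54, 3.48 and 7.84 CPM in EcTM, with 4.34, 9.33, 2.60 and 6.23 CPM in non-EcTM. E592 and E606, and N592 and N606, were the higher libraries of their groups, and the fold change was -0.05 ± 0.70. Ckm reached 24 counts in E606. Mb (myoglobin) had 4 counts in N592, 1 in N606 and 0 elsewhere, with 3 curated transcripts. Nppa, the hormone gene, had 8.51, 6.65, 2.61 and 10.2 CPM in EcTM, with 15.8, 3.497, 0 and 4.59 CPM in non-EcTM. Nppa spanned 0 to 40 counts within non-EcTM alone, and its fold change of 0.23 ± 0.89 was 1.33 without N591.

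**Figure D4:**
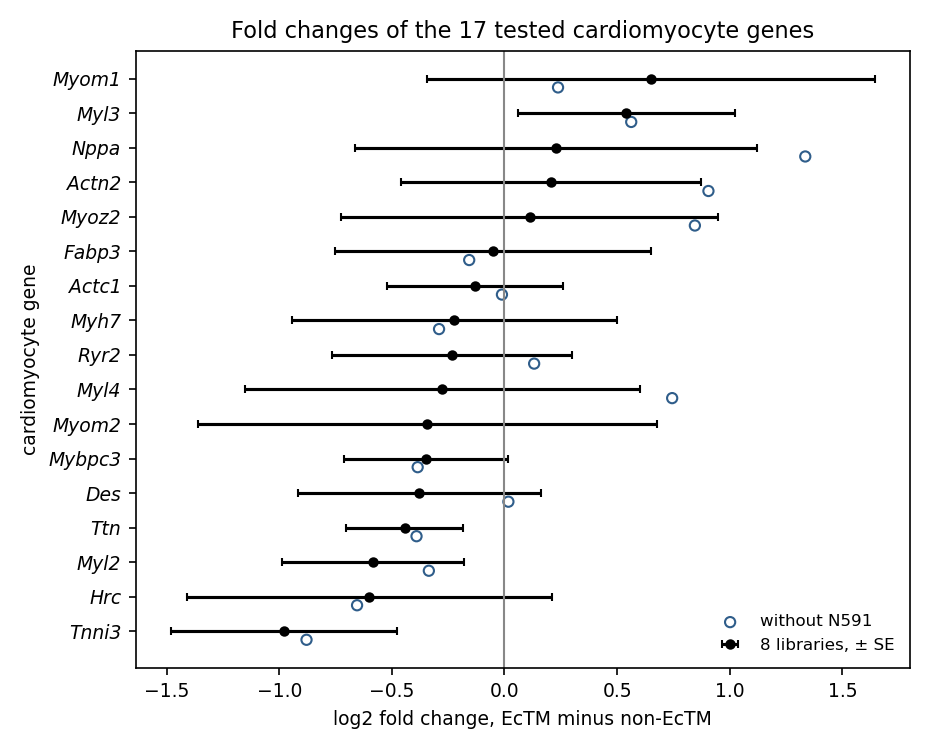
Log2 fold change of the 17 tested cardiomyocyte genes, EcTM minus non-EcTM, with bars for ± SE over 8 libraries, and open circles for the fit without N591. Tnni3 lies lowest in both fits, Nppa moves from 0.23 to 1.33 and Myl4 from -0.28 to 0.74 without N591, and Myom2 was not tested without it.

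The precision was low. The SE of a log2 fold change was 0.26 to 1.02 for the 17 genes with a median of 0.67, beside a median of 0.31 over all tested genes. The biological coefficient of variation, edgeR's estimate of the spread between libraries beyond counting error, had a median of 0.580 for the 17 and of 0.484 for the 3604 tested genes in the same range of mean level, 4.53 to 31.7 CPM. The difference of Tnni3 was -0.98 on the log2 scale and did not pass at this precision.

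Genes of other heart cells had counts too, and N591 was the highest library for 3 such lists. A list of 20 endothelial and endocardial genes summed to 87.5 to 539 CPM in EcTM, with 160 to 1432 CPM in non-EcTM, the highest value in N591 and the next in E591. Of this list 7 genes were at 0, among them Pecam1, Tek and Nfatc1. The 14 mural genes summed to 85.1 to 118 CPM in EcTM, with 90.2 to 333 CPM in non-EcTM, and Myh11 and Pdgfrb were at 0. The 14 fibroblast genes summed to 27.4 to 146 CPM in EcTM, with 30.3 to 219 CPM in non-EcTM, and Pdgfra, Postn and Sparc were at 0. N591 was also the highest library of the cardiomyocyte sum, and Des stands in both the mural and the cardiomyocyte list. The highest library was 16.4 times the lowest for the endothelial list, 7.99 times for the fibroblast list, 3.92 times for the mural list and 2.15 times for the cardiomyocyte list, and 1.14 times for the macrophage list. Of the 26 cardiomyocyte genes with a count 10 were highest in N591, and of the 17 tested 7 were, where 14.0% of all tested genes were.

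**Figure D5:**
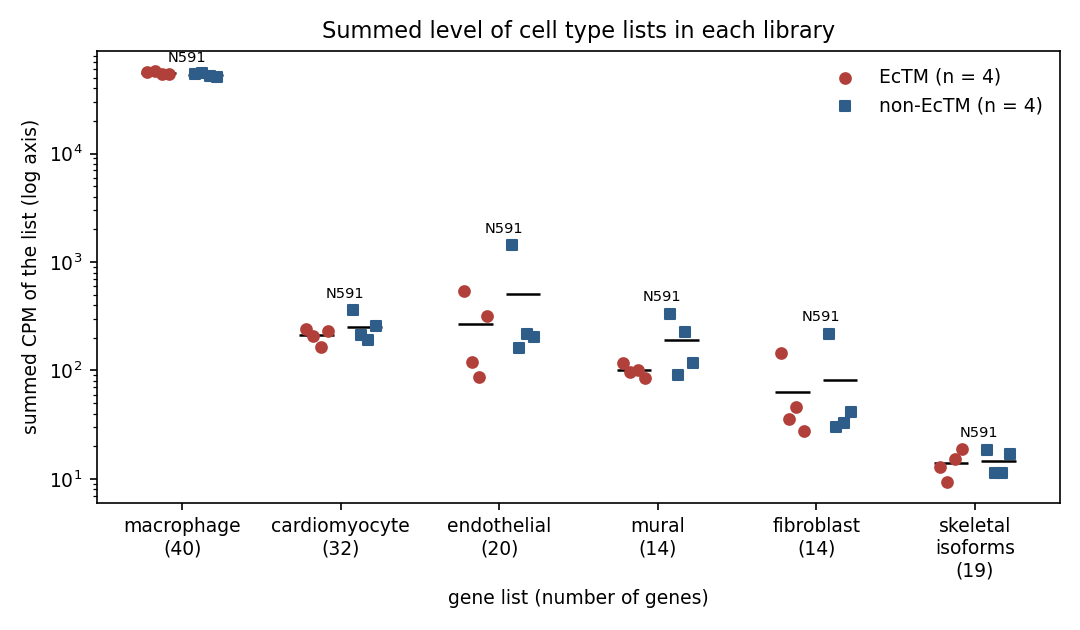
Summed CPM of 6 gene lists in each library (log axis), with bars at the group means and the library N591 named. N591 is highest for the cardiomyocyte, endothelial, mural and fibroblast lists, and the cardiomyocyte sums span 166 to 357 CPM where the endothelial sums span 87.5 to 1432 CPM.

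Muscle isoforms of skeletal fibres were scarce. The 19 genes of this list summed to 9.31 to 18.8 CPM per library, and 9 of them were at 0, including the skeletal actin gene Acta1 and the myosin genes Myh2 and Myh4. Its highest members were Atp2a1 (the calcium pump of fast fibres) at a mean of 3.59 CPM, Neb (nebulin) at 2.71 and Tnni2 (fast troponin I) at 2.34 CPM. Among 15 heart transcription factor genes 6 were at 0, with Gata4, Mef2c and Myocd among them. Srf, which most cell types express, had 104 CPM, Mef2d 3.51 CPM and Tbx20 1.38 CPM. Of 23 further sarcomere and disc genes 16 had a count, led by Myh7b at 14.0, Hspb7 at 10.4 and Cmya5 at 9.39 CPM. Of 17 further calcium and channel genes 9 had a count, led by the potassium channel gene Kcnj2 at 26.3 CPM. The 11 genes of the intercalated disc included Jup at 193, Vcl at 123 and Dsp at 18.6 CPM, and the first 2 are made by many cell types. Of 16 further genes of muscle energy supply 14 had a count. Of the 6 lists in this order 1, 2, 5, 1, 4 and 7 genes were tested in edgeR, and 0 passed in either direction.

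Genes of the atrial and of the ventricular list both had counts, although Myl7 was at 0 in E592, E604 and N606. Whether the RNA came from both chambers was not tested. The sum of the atrial genes Myl4, Myl7 and Nppa was 22.2, 10.2, 7.84 and 14.9 CPM in EcTM, with 43.0, 5.05, 4.76 and 9.50 CPM in non-EcTM. The sum of the ventricular genes Myl2 and Myl3 was 40.7, 34.6, 20.9 and 22.7 CPM in EcTM, with 47.7, 26.4, 26.8 and 37.7 CPM in non-EcTM. The atrial sum varied 9.03-fold over the libraries and the ventricular sum 2.28-fold, and N591 was highest in both. Without N591 the ranges were 4.67-fold and 1.95-fold.

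The position of the genes bears on what their counts hold. In the GENCODE annotation of GRCm38, 22 of the 32 overlap another annotated gene, 8 on the same strand and 19 on the other, and the strand setting of the counting is not given. Mybpc3 lies on chromosome 2 from 91118114 to 91136516 in RefSeq. The gene before it on the same strand is Spi1, which encodes the macrophage transcription factor PU.1 and ends 2387 bases before the GENCODE start of Mybpc3. Spi1 had 768, 1106, 982 and 1043 counts in EcTM and 1105, 1097, 1051 and 1272 in non-EcTM, and Mybpc3 had 31, 40, 71 and 101 and 77, 125, 43 and 103. Mybpc3 counts were 3.62% to 11.4% of those of Spi1 over the libraries, with the highest share in N592. Xirp1 overlaps on its own strand an annotated transcript of Cx3cr1, the fractalkine receptor gene of macrophages, which had 22640 counts over the 8 libraries where Xirp1 had 62. Both pairs were singled out after their values were seen, and the part of the neighbours in these counts was not tested. The cardiomyocyte sum without Mybpc3 had a mean of 186 CPM in EcTM, against 221 CPM for non-EcTM.

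The sequence before the start of these genes holds motifs of muscle promoters, a feature that did not enter the choice of the genes. RefSeq windows from 250 bases before to 50 after the start were matched by symbol for 28 of the 32 genes (GRCm38.p6), and motifs were searched on both strands. The CArG box, the binding motif of serum response factor, was found in windows of 6 of the 28 genes (21.4%), beside 1.81% of 27025 genes in the table. The MEF2 motif was found in 3 (10.7%), beside 0.636%. The motif CATTCC, known from muscle genes as the M-CAT element, was found in 10 (35.7%), beside 16.6%. The TATA motif TATAAA was found in 6 (21.4%), beside 15.7%, and the motif AGATAA in 6 (21.4%), beside 12.7%. In the 28 macrophage genes with a window, the CArG box and CATTCC were each found in 2 (7.14%) and the MEF2 motif in 0. TATAAA and AGATAA were each found in 5 of these macrophage genes (17.9%). The motif GAGGAAGT, a form of the PU.1 site, was found in 0 of the 28, in 3 of 28 macrophage genes with a window (10.7%) and in 3.69% of all. A match is a description of letters, and factor binding was not measured.

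The promoters of Actc1, Myl3 and Mybpc3 are shown as examples of genes that carried counts in all 8 libraries and hold such a motif close to the start. Other genes met the same terms, such as Myoz2 with a MEF2 motif 33 bases before its start and Tnnc1 with CATTCC at 58 bases. Each line gives the 150 bases before the transcript start in the promoter table, 5′ to 3′ on the gene's strand, with motif matches in capitals.
Actc1 (chr2:114052876-114053025, minus strand): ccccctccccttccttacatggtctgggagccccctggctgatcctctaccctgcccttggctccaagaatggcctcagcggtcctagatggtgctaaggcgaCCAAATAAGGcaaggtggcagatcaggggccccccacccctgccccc
Myl3 (chr9:110763528-110763677, plus strand): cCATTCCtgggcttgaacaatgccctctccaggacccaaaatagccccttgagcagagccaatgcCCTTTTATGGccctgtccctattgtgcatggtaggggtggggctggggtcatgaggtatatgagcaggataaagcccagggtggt
Mybpc3 (chr2:91117994-91118143, plus strand): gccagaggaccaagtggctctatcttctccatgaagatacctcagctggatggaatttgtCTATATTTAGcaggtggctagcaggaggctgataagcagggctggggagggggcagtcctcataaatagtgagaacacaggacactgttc
The capitals mark a CArG box in Actc1, a CATTCC motif and then a CArG box in Myl3, and a MEF2 motif in Mybpc3. The CArG box begins 47 bases before the transcript start in Actc1 and 85 bases before it in Myl3, and the MEF2 motif begins 90 bases before it in Mybpc3. That transcript start of Mybpc3 lies downstream of the RefSeq gene start given above, so the end of the stretch shown is inside the RefSeq gene. The stretch shown for Mybpc3 lies after the end of Spi1.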

How the data were processed

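RNA of sorted macrophages was extracted with a column kit and made into stranded total RNA libraries, per the labels' protocols. The authors deposited whole-number read counts per gene and, beside them, columns headed CPM that hold log2 values and were not used here. The submitters' processing notes name bcl2fastq 2.17, TopHat, DESeq2, R 3.2 and the build mm10; how reads were assigned to genes, strand included, was not found in these sources. The libraries have 2152425 to 2937464 counts.

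Groups and numbers were taken from the sample titles. Counts were fitted with edgeR 4.0.16 (quasi-likelihood test, TMM factors, default filter, Benjamini-Hochberg adjustment, threshold 0.05) in R 4.3.3, with group alone. Alternatives were DESeq2 1.42.0, other filters and scalings, the title number as a replicate block and leaving out libraries. The scripts were tested on simulated data. Libraries of the same number deviated together, with correlations of 0.122 to 0.186 in 4 pairs against -0.127 to 0.0532 in the other 12. Values were centred within each group first, so positive correlations in the 4 pairs push the other 12 down. The numbers were taken as pairs (minimum 0.1) in the pair counts and the replicate block fits. The main fit, with its fold changes, SEs and adjusted p, did not use them. The labels do not say what a number stands for.

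The members and all gene lists were chosen with earlier results of these data known. All 32 members are accounted for, and each tested member is given in every library. Of other lists, genes among the 3 with the highest mean CPM and genes at 0 may be named; other names were chosen after their values were seen. Transcript numbers and promoters come from RefSeq GRCm38.p6, and neighbours from GENCODE.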

Additional observations from a re-analysis of the deposited data

Results flagged for a closer look

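Of 46 groups of 4 values examined, 6 held a library far from the other 3 by Dixon's test, and chance marks about 1 in 20 groups. Among cardiomyocyte genes, Tnni3 was 9.93 CPM in E591, where the other EcTM libraries lay at 5.66 to 5.88. These values rest on 21 counts in E591 and 13, 13 and 15 in the others, and Dixon's test leaves counting error out. Ryr2 was 30.7 CPM in E591, where the others lay at 7.06 to 9.31. Des was 26.8 CPM in N591, where the other non-EcTM libraries lay at 10.8 to 12.4. The endothelial list summed to 1432 CPM in N591, against 160 to 215 in the other non-EcTM libraries. The fibroblast list summed to 146 CPM in E591, against 27.4 to 45.7 in the other EcTM libraries, and to 219 CPM in N591, against 30.3 to 41.3 in the other non-EcTM libraries.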

How the results depend on the processing

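In the 20 alternatives that gave cardiomyocyte genes an adjusted p, 0 passed. Among the 17 genes tested in the main fit, the smallest adjusted p in any alternative was 0.802. DESeq2 with the replicate block gave none an adjusted p. Over all genes edgeR called 0, with the replicate block 1, with no filter 7, and DESeq2 with the replicate block 26. Leaving out libraries gave 0 to 1 genes, the 1 without E604 or without both E604 and N604. The replicate block changed no call for a member in edgeR, but Myom2 turned to 0.33 in edgeR and 0.38 in DESeq2. The median log2 fold change of the tested members ranged from -0.44 to 0.00299, and the log2 ratio of the sums from -0.44 to -0.06, the latter without N591. Myl2, Myl3, Tnni3, Ttn and Hrc kept their sign in every alternative that tested them. With libraries left out, log2 fold changes ranged from -0.36 to 0.0896 for Actc1, -0.61 to 0.38 for Myh7, -1.04 to 0.74 for Myl4, -0.64 to 0.0433 for Mybpc3, -0.99 to 0.13 for Ryr2, -0.18 to 1.33 for Nppa, -0.77 to 0.0173 for Des, -0.24 to 0.92 for Actn2, -0.20 to 1.51 for Myom1, -0.73 to 0.0072 for Myom2, -0.28 to 0.30 for Fabp3 and -0.53 to 1.11 for Myoz2. The cause of these changes was not tested beyond the libraries left out. Sums without Mybpc3, and without genes that overlap another gene, were added after seeing the data. Depth limits each value: the best-covered member, Ttn, had 51 to 130 counts per library.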
